A study of Homo sapiens with 6 samples.

Results

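Heat shock proteins are chaperones, which hold other proteins in a foldable state, refold damaged ones and help to assemble complexes. The set described here holds 10 genes of 29810 in the table of expression values: the cytosolic HSP90 genes HSP90AA1 and HSP90AB1, the cytosolic HSP70 genes HSPA8, HSPA1A and HSPA1B, the HSP70 partners DNAJB1 and HSPH1, the mitochondrial chaperonin genes HSPD1 and HSPE1, and HSF1. They were taken by name, with no threshold on expression. The treated libraries came from Kasumi-1 cells kept for 48 h with I1 at 0.125 µM, with 3 samples, and were set against 3 samples kept for 48 h with control. For the agent I1 the labels give a code name alone, and they do not say what the control contained. Kasumi-1 is an established human acute myeloid leukaemia line of myeloblasts, which carries a fusion of RUNX1 with RUNX1T1. All 6 libraries come from this 1 line, so they show no spread between patients.

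In unstressed cells HSF1, the main transcription factor of the heat shock response, is held inactive by chaperones such as HSP90 and HSP70. When unfolded proteins occupy those chaperones, HSF1 forms trimers, binds heat shock elements in promoters and raises the inducible chaperone genes. HSP70 works in a cycle with J-domain proteins such as DNAJB1, which drive it to bind a client, and with nucleotide exchange factors such as HSPH1, which make it let go. Leukaemia cells are known to depend on HSP90 for many kinases, KIT among them.

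Promoters are shown for 5 genes whose levels are compared below, to set out where the letters of a heat shock element lie. A heat shock element is a run of the 3-base unit GAA and its inverse TTC with 2 bases between units. The RefSeq promoter table (GRCh38.p14) gave 15 windows for 9 of the members, each with 250 bases before a transcript start and 50 after it. Both strands were searched for 2 units (GAANNTTC or TTCNNGAA) and for 3 units (either pair with a further unit), and matches may overlap. Of the 9 members, 7 had a match of 2 units in at least 1 window and 4 had a match of 3 units. By window, 8 of 15 held 2 units and 4 held 3 units, against 13.5% and 0.49% of the 35116 windows of all genes. HSPH1 and HSPE1 had no match of these letters in their windows. Capitals mark the matches in the sequences, which run 5′ to 3′ along the strand of the gene.
HSPA1A, chr6:31815293-31815592, plus strand: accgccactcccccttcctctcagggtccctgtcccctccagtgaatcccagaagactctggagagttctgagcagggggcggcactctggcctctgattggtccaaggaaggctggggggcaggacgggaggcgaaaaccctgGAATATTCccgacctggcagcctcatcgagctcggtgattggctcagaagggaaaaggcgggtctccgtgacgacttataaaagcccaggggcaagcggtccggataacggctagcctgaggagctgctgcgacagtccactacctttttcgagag
HSPA1B, chr6:31827488-31827787, plus strand: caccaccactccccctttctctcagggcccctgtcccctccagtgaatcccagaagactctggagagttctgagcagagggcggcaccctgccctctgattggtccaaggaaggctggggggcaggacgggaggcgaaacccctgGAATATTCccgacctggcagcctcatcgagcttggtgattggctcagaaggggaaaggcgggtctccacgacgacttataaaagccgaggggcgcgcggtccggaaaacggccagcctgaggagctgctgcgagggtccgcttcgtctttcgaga
HSPA8, chr11:123062087-123062386, minus strand: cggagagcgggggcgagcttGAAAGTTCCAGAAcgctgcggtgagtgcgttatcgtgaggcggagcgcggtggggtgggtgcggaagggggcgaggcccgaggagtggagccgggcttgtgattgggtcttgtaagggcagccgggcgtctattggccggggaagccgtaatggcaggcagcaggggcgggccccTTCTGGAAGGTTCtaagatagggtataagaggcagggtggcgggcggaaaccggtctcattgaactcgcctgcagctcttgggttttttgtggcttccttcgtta
HSP90AA1, chr14:102086995-102087294, minus strand: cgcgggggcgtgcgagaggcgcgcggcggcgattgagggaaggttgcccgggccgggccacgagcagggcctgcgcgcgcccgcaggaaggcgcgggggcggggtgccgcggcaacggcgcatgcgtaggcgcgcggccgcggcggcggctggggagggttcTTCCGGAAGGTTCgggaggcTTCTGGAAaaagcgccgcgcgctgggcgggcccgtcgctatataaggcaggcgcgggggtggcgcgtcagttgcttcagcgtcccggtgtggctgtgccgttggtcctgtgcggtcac
DNAJB1, chr19:14518348-14518647, minus strand: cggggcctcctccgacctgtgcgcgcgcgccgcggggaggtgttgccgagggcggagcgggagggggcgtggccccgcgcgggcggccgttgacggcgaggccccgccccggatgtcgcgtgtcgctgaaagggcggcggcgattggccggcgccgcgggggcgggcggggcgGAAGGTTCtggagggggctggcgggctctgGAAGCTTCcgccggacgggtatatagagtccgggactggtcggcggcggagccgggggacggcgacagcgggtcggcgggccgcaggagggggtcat
The windows of HSPA1A and HSPA1B were identical at 277 of 299 aligned bases (92.6%), and each held 1 match of 2 units. HSPA8 held 4 overlapping matches of 2 units, which form 2 runs of 3 units, and HSP90AB1 held the same numbers in 1 of its 3 windows. HSP90AA1 held 3 matches of 2 units and DNAJB1 held 2 in the windows shown, which are those with the most matches. HSP90AA1 has 2 windows, and that not shown held 0. DNAJB1 has 3 windows, and those not shown held 0 and 1. A CCAAT box (CCAAT or ATTGG) was present in 7 of the 15 windows, against 34.6% of all windows, and TATAAA in 2, those of HSPA1A and HSPA1B, against 11.5%. HSPD1 and HSPE1 lie head to head, and their windows overlap by up to 204 bases. The HSPD1 window in that overlap held no match. The matches of HSPD1 lie in its other window, which ends at base 197500090. That of HSPE1 begins at base 197500129, so those matches fall outside it and were not counted for HSPE1. A match of letters is a description and does not show that a factor binds there.

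RNA was sequenced from polyadenylated transcripts, and the deposited values are FPKM, fragments scaled to gene length and to the size of the library. The library totals behind them were inferred as the numbers that turn FPKM into whole reads. They came to 16391000 to 16948000 fragments with I1 and 17331000 to 18204000 in control. The reads so recovered, summed over genes, exceeded the inferred total in each library, at 16694870 against 16391000 in I1 replicate 1. Read numbers given below rest on these totals. A single read in a kilobase was worth 0.0590 to 0.0610 FPKM with I1 and 0.0549 to 0.0577 FPKM in control. Control replicate 1 stood apart from the other libraries, with a mean correlation of 0.948 with them against 0.966 to 0.973, and its excess over the mean of the other controls went with the GC content of a gene at a Spearman's rho of 0.668 over 11899 genes, a description since genes are not independent. Values without this library are given where a member's log2 fold change then moved by over 1.5 times. Myeloblast markers were present, with 7 of 8 above a mean of 1 FPKM (PROM1 was listed at 0) and a summed level of 9274 to 11097 FPKM with I1 and 10095 to 14556 FPKM in control. Markers of red cells, megakaryocytes, T cells and fibroblasts all had means under 1 FPKM, and 1 marker each of B cells, NK cells, monocytes and endothelial cells reached it, with summed levels of these lists at 0.457 to 8.57 FPKM with I1 and 1.17 to 10.5 FPKM in control. Of the 3 epithelial markers in the table, EPCAM alone reached a mean of 1 FPKM, at 28.4 with I1 and 25.0 in control, while KRT8 was listed at 0. In such bulk samples, fewer cells that carry a transcript and less of it per cell cannot be told apart.

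The members spanned a wide range of levels. HSP90AB1, the constitutive cytosolic HSP90, was the highest, with 963, 1017 and 884 FPKM in I1 replicates 1 to 3 and 938, 1123 and 947 FPKM in control replicates 1 to 3. It ranked 29 by mean FPKM among 11913 tested genes. HSPA8, the constitutive HSP70 that folds new proteins, had 487, 519 and 463 FPKM with I1 and 511, 603 and 491 FPKM in control, at rank 56. Both genes varied little, by 1.27-fold and 1.30-fold between the lowest and the highest library, and the I1 and control values overlapped.

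HSP90AA1, the stress-inducible HSP90, had 244, 420 and 361 FPKM with I1 and 156, 392 and 273 FPKM in control. It varied most among the members, by 2.69-fold, with the libraries numbered 1 lowest and those numbered 2 highest in both groups. HSPD1, the mitochondrial chaperonin HSP60, had 230, 266 and 233 FPKM with I1 and 171, 265 and 209 FPKM in control. The ranges of HSP90AA1 and HSPD1 overlapped in each group, so their order is not fixed by these libraries.

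The HSP70 partners and the regulator were at intermediate levels. DNAJB1, a J-domain protein induced by heat shock, had 32.3, 41.6 and 42.0 FPKM with I1 and 35.9, 47.3 and 43.3 FPKM in control. HSF1 had 31.0, 28.0 and 25.4 FPKM with I1 and 39.3, 29.8 and 33.1 FPKM in control, with the 2 highest values in control. HSPH1, a large HSP70 relative that acts as exchange factor, had 20.4, 28.7 and 22.7 FPKM with I1 and 15.4, 27.8 and 22.5 FPKM in control. The ranges of HSF1 overlapped with those of HSPH1 with I1 and with those of DNAJB1 in control.

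The stress-inducible HSP70 genes were low among the members, though HSPA1A ranked 2879 and HSPA1B 2937 by mean FPKM among 11913 tested genes. HSPA1A had 8.82, 19.8 and 13.8 FPKM with I1 and 13.1, 19.9 and 15.8 FPKM in control. HSPA1B had 12.6, 14.4 and 13.1 FPKM with I1 and 15.1, 18.3 and 15.9 FPKM in control, so every I1 library lay below every control library. Their levels rested on 359 to 856 and 520 to 800 reads per library. Levels of the 2 copies overlapped in both groups. They are near-identical: 67.3% of the 100-base windows of HSPA1A transcripts occur unchanged in HSPA1B, and 68.8% of those of HSPA1B occur in HSPA1A. The sources used here do not say how reads that match both were counted, so each copy's own level is uncertain. A further limit for HSPA1B is that 36.5% of its exon bases lie in AL671762.1 on the same strand.

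HSPE1, the cochaperonin HSP10 that closes the HSP60 ring, was the lowest member, with 1.76, 3.22 and 3.20 FPKM with I1 and 1.31, 2.45 and 2.06 FPKM in control. These values are 57, 108 and 105 reads with I1 and 47, 84 and 72 reads in control, and the counting error alone was up to 14.6%. HSPD1, its partner, had 13206 to 19529 reads. Of the exon bases of HSPE1, 9.71% lie in the read-through gene HSPE1-MOB4 on the same strand and 14.2% in HSPD1 on the other strand, and 12.9% of its 100-base windows occur in other genes. Of the 12 HSPE1 pseudogenes with a row of values, 10 were above 0, and HSPE1P2 had 2.79, 5.21 and 3.93 FPKM with I1 and 1.08, 4.34 and 2.59 FPKM in control, above the FPKM of HSPE1 in all libraries but control replicate 1. In reads HSPE1P2 was below HSPE1, with at most 27 in a library. The part of these overlaps in the low level of HSPE1 was not tested, so its FPKM is uncertain. HSPD1P1, the highest pseudogene of HSPD1, reached 5.78 FPKM, far below the parent gene, and no pseudogene of HSPA8 exceeded 1.62 FPKM.

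**Figure D1:**
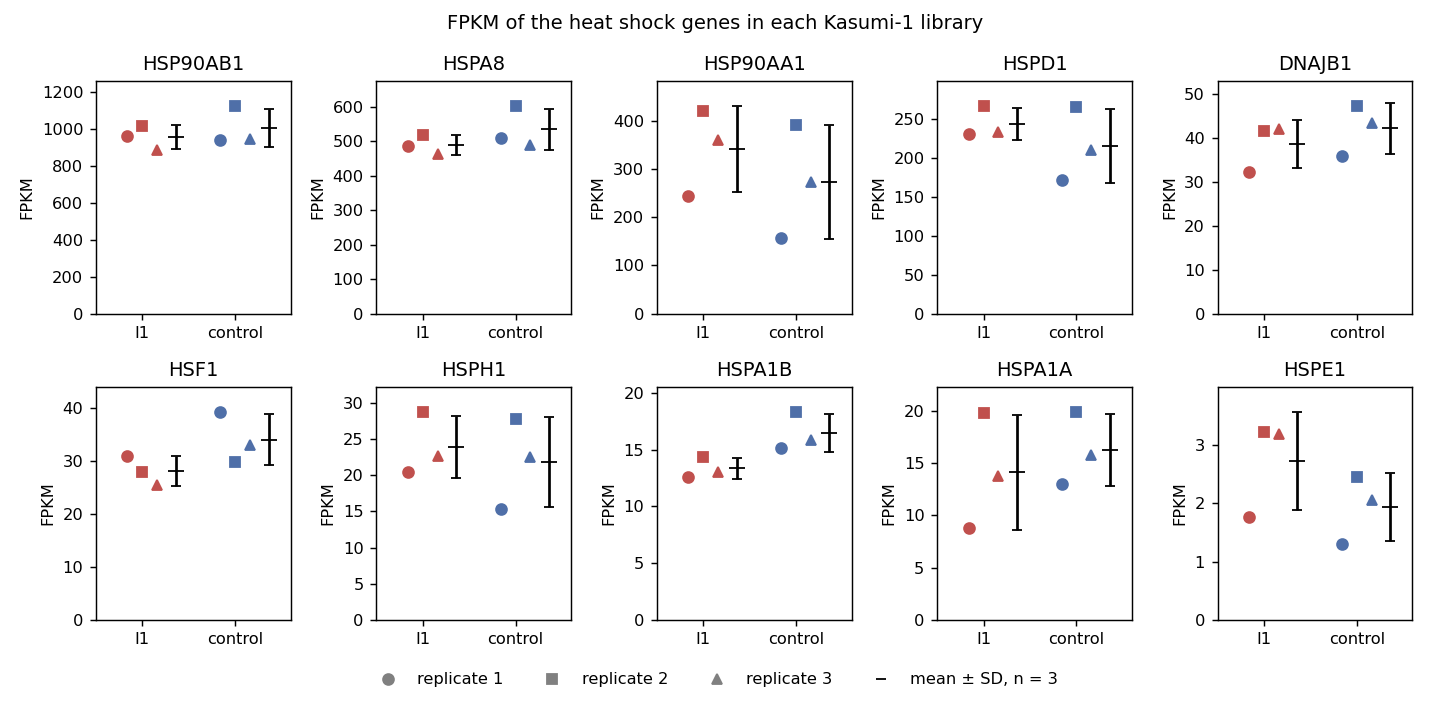
FPKM (linear axis from 0) of each member in 3 I1 libraries (red, left) and 3 control libraries (blue, right), with the symbol giving the replicate number and the black bar the mean ± SD. The groups overlap for every member except HSPA1B, which lay between 12.6 and 14.4 FPKM with I1 and between 15.1 and 18.3 FPKM in control.

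By gene, the loci are spread over the genome (hg38, GENCODE release 29, whole-gene spans with introns). HSPA1A (ENSG00000204389; chromosome 6, 31815464 to 31817946) and HSPA1B (ENSG00000204388; chromosome 6, 31827735 to 31830255) are intronless neighbours on the plus strand. HSP90AB1 (ENSG00000096384) lies on the same chromosome at 44246166 to 44253888, plus strand. HSPD1 (ENSG00000144381; 197486581 to 197516737, minus strand) and HSPE1 (ENSG00000115541; 197499994 to 197503457, plus strand) overlap on chromosome 2. HSPA8 (ENSG00000109971) lies on chromosome 11 at 123057489 to 123063230, minus strand, and small nucleolar RNA genes of the SNORD14 family share 3.61% of its exon bases. HSPH1 (ENSG00000120694) lies on chromosome 13, HSP90AA1 (ENSG00000080824) on chromosome 14 and DNAJB1 (ENSG00000132002) on chromosome 19, all on the minus strand.

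The comparison of I1 with control asked which transcripts differed after 48 h. None of the 10 members, all of which passed the filter on low values, rose or fell past the threshold, which was set at an adjusted p under 0.05 by limma together with a log2 difference of 1 or more either way. Over all tested genes the share past it was 0.0336%, 4 of 11913. At an unadjusted p under 0.05 by limma the members counted 0 of 10, against 9.57% of all tested genes. With the replicate number as a block the members past the threshold were again 0 (0.0504% of all genes), and 4 of 10 had an unadjusted p under 0.05, against 27.1% of all genes. These were HSP90AA1 (limma with the block, unadjusted p = 0.0126), HSPA1B (0.0147), HSF1 (0.0253) and HSPE1 (0.0315), the first and last higher and the others lower with I1. The smallest adjusted p of a member by limma was 0.467 without the block and 0.142 with it. Of the members 4 lay above 0 and 6 below, with a median log2 fold change of -0.10, beside 0.03 for all tested genes.

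HSP90AA1 averaged 341 ± 89.4 FPKM with I1 and 274 ± 118 FPKM in control (SD, n = 3 each). Its log2 fold change on the log2(FPKM + 1) scale was 0.38 ± 0.338 (SE; limma adjusted p = 0.582), with the I1 library above its same-numbered control in 3 of 3 pairs, and the 95% interval allowed a fold of 0.758 to 2.24. Without control replicate 1 the log2 fold change was 0.03, without control replicate 2 it was 0.69, without I1 replicate 1 it was 0.60 and without I1 replicate 2 it was 0.21. HSP90AB1 averaged 954 ± 66.9 FPKM with I1 and 1003 ± 104 FPKM in control, a log2 fold change of -0.07 ± 0.145 (adjusted p = 0.813) with a fold interval of 0.756 to 1.203. It was -0.11 without control replicate 1 and 0.0160 without control replicate 2. With the replicate number as a block the intervals were narrower, at a fold of 1.08 to 1.57 for HSP90AA1 and 0.836 to 1.09 for HSP90AB1. That of HSP90AA1 then leaves out 1, as do those of HSPA1B (0.715 to 0.949), HSF1 (0.716 to 0.970) and HSPE1 (1.03 to 1.55). Those of all other members include 1. These folds are of FPKM + 1, and the intervals are not adjusted for the number of genes. The limma adjusted p with the block was 0.142 for HSP90AA1, 0.144 for HSPA1B, 0.151 for HSF1 and 0.159 for HSPE1. With the block and a correction of each library for GC content, the limma adjusted p was 0.262, 0.452, 0.784 and 0.237 in the same order. The log2 fold changes were then 0.27 for HSP90AA1, -0.11 for HSPA1B, -0.04 for HSF1 and 0.35 for HSPE1.

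Among the HSP70 genes, HSPA8 averaged 490 ± 27.9 FPKM with I1 and 535 ± 59.8 FPKM in control, and its log2 fold change was -0.12 ± 0.138 (limma adjusted p = 0.654; fold interval 0.736 to 1.14), or -0.03 without control replicate 2. HSPA1A averaged 14.1 ± 5.48 FPKM with I1 and 16.2 ± 3.44 FPKM in control, with a log2 fold change of -0.24 ± 0.271 (adjusted p = 0.661). Leaving out I1 replicate 1 gave 0.0407 and leaving out I1 replicate 2 gave -0.50, and it was -0.38 without control replicate 1 and -0.09 without control replicate 2. HSPA1B averaged 13.3 ± 0.939 FPKM with I1 and 16.4 ± 1.66 FPKM in control. Its log2 fold change was -0.28 ± 0.122 (adjusted p = 0.467), lower with I1 in 3 of 3 pairs, and it was the only member whose groups did not overlap, where 8.74% of all tested genes were lower in this way and 12.9% higher. Summed, because reads may be split between them, the 2 copies differed by -0.26 on the log2 scale (limma adjusted p = 0.524). A correction of each library for GC content brought HSPA1B to -0.11 and HSPA1A to -0.06. On the corrected scale the groups of HSPA1B overlapped, with control replicate 1 (3.80 on the log2 scale) below the I1 libraries.

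DNAJB1 averaged 38.6 ± 5.46 FPKM with I1 and 42.2 ± 5.76 FPKM in control (log2 fold change -0.12 ± 0.155, limma adjusted p = 0.687), lower with I1 in 3 of 3 pairs. The log2 fold change of DNAJB1 was -0.0042 without I1 replicate 1, -0.04 without control replicate 2, -0.19 without I1 replicate 3, -0.23 without control replicate 1 and -0.0487 after the GC correction. HSPH1 averaged 23.9 ± 4.29 FPKM with I1 and 21.9 ± 6.23 FPKM in control. Its log2 fold change of 0.15 ± 0.221 (adjusted p = 0.730) had the sign of 3 of 3 pairs, but was 0.02 without I1 replicate 2, -0.07 without control replicate 1, 0.33 without control replicate 2, 0.25 without I1 replicate 1 and -0.13 after the GC correction. HSF1 averaged 28.1 ± 2.76 FPKM with I1 and 34.0 ± 4.80 FPKM in control, a log2 fold change of -0.26 ± 0.140 (adjusted p = 0.467) with a fold interval of 0.666 to 1.04. Its transcripts are the richest in GC among the members, at 64.7%, against a median of 47.9% for tested genes, and its log2 fold change was -0.04 after the GC correction and -0.16 without control replicate 1. Across tested genes GC content and log2 fold change had a Spearman's rho of -0.753, a description over genes that are not independent.

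The mitochondrial chaperonin genes lay above 0. HSPD1 averaged 243 ± 20.3 FPKM with I1 and 215 ± 47.6 FPKM in control, a log2 fold change of 0.19 ± 0.176 (limma adjusted p = 0.588) that was 0.04 without control replicate 1, 0.13 without I1 replicate 2, 0.36 without control replicate 2 and 0.05 after the GC correction. HSPE1 averaged 2.73 ± 0.837 FPKM with I1 and 1.94 ± 0.582 FPKM in control, a log2 fold change of 0.34 ± 0.226 (adjusted p = 0.504), higher with I1 in 3 of 3 pairs. With 0.5 or 0.1 added to FPKM in place of 1, the log2 fold change of HSPE1 was 0.40 or 0.46. After the GC correction it was 0.35, without control replicate 1 it was 0.17 and without I1 replicate 1 it was 0.54. HSPA8, HSPA1A and HSF1 were also lower with I1 in 3 of 3 pairs and HSPD1 higher in 3 of 3, while HSP90AB1 was higher in 1 of 3. The share of all tested genes with 3 of 3 pairs in 1 direction was not computed, so such counts do not set these members apart.

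**Figure D2:**
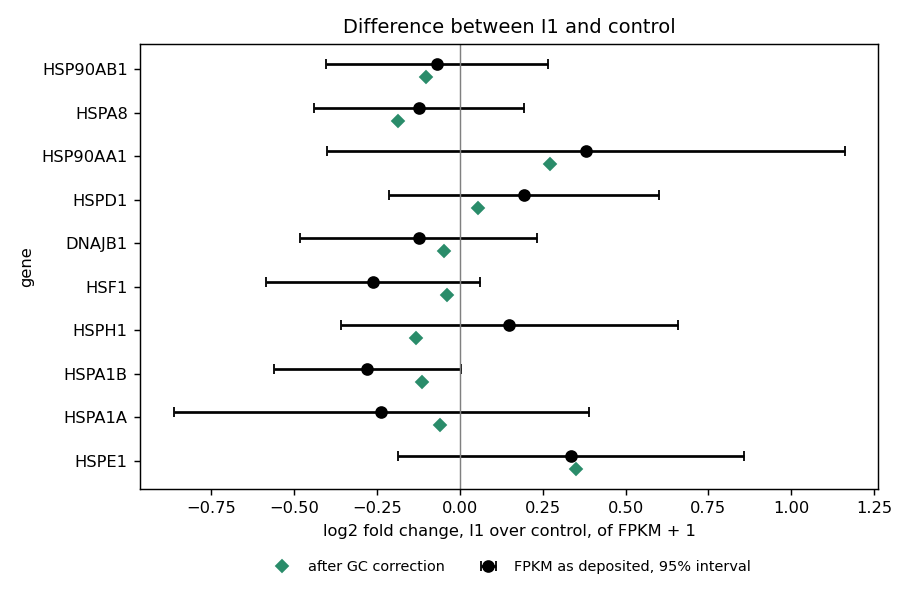
Log2 fold change of I1 over control for each member on the scale of log2(FPKM + 1). Black circles with 95% intervals are from FPKM as deposited, green diamonds are the values after the GC correction; every interval, from the fit without the replicate block, includes 0, and HSPH1 changes sign with the correction.

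The members differed more between replicate numbers than between agents. Of the sum of squares of log2(FPKM + 1) around each gene's mean, the replicate number took a median of 73.7% over the members and 49.3% over all tested genes, and the agent took 17.5% and 25.9%. The number has 2 degrees of freedom and the agent 1. For DNAJB1 the number took 84.9%, for HSPH1 84.3%, for HSPA1A 81.9% and for HSP90AA1 79.6%. HSPA1B and HSF1 were the exceptions: the number took 30.3% and the agent 68.7% for HSPA1B, and 41.9% and 47.7% for HSF1.

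In 6 of 10 members (HSP90AA1, HSPA1A, HSPA1B, HSPH1, HSPD1 and HSPE1) the library numbered 1 was lowest and that numbered 2 highest in both groups, against 11.9% of all tested genes. In 7 members, DNAJB1 among them, the library numbered 1 was lowest in both groups, against 26% of all tested genes, and in 7 all 3 numbers fell in the same order in both groups, against 36.5%. These orderings were picked after the values were seen. After the GC correction the first ordering held in 5 members, HSPE1 no longer among them, and in 7.78% of all genes. What the replicate numbers stand for is not stated, so a shared culture day, preparation or other source was not tested. HSP90AB1 and HSPA8 were highest in replicate 2 of both groups as well, whereas HSF1 was highest in replicate 1 of both groups.

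**Figure D3:**
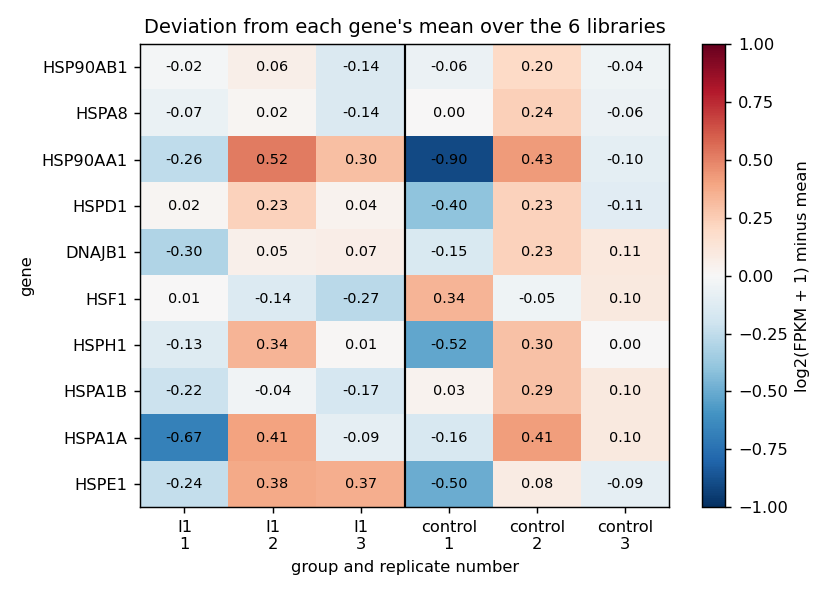
Log2(FPKM + 1) of each member minus its mean over the 6 libraries, with I1 replicates 1 to 3 left of the line and control replicates 1 to 3 right of it. HSP90AA1 ranges from -0.90 in control replicate 1 to 0.52 in I1 replicate 2, while HSF1 is highest in control replicate 1, at 0.34.

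Across the 6 libraries several members' levels went together, and some of these likenesses depended on GC content. HSP90AA1 correlated at r = 0.965 with HSPH1, 0.940 with HSPD1 and 0.934 with HSPE1, and HSP90AB1 at 0.950 with HSPA8. HSPA1A was nearest to DNAJB1, its partner in the HSP70 cycle, at 0.885. HSF1 had 7 of 9 pairs below 0, from -0.025 with HSP90AB1 to -0.925 with HSPE1. With HSP90AA1 it was at -0.877. Of the 45 pairs of members, 36 were above 0, with a median of 0.49. The share over pairs of all tested genes was not computed, so these counts cannot be called particular to the members. These values are descriptions of 6 libraries that share control replicate 1 and a dependence on GC content. After the GC correction 36 pairs were above 0 too, with a median of 0.63. The count was also 36 without control replicate 1, with a median of 0.55. Without that library the pair of HSF1 and HSP90AA1 was at -0.642 and that of HSP90AB1 and HSPA8 at 0.978, and after the GC correction they were at -0.462 and 0.912. The correction also moved HSP90AA1 with HSPH1 to 0.631, with HSPD1 to 0.883 and with HSPE1 to 0.923, HSF1 with HSPE1 to -0.682 and HSPA1A with DNAJB1 to 0.905. It moved HSF1 with HSPD1 from -0.808 to -0.162 and HSF1 with HSPH1 from -0.738 to 0.014, and 6 of the 9 HSF1 pairs then lay below 0. HSPH1 was then nearer to HSPA1B, at 0.910, and to HSPA1A, at 0.892.

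Among 6921 other tested genes with a mean of at least 5 FPKM, those most like each member over the 6 libraries were found by Pearson's r of log2(FPKM + 1). Picked as the highest of 6921 values over only 6 libraries, these r are high by selection. They come from values without the GC correction and with control replicate 1 included. Whether they hold after the correction or without that library was not tested. PRDX3, a mitochondrial peroxidase, was nearest to HSPH1 (0.999), and MAPRE1, a protein of microtubule ends, to HSP90AA1 (0.997). POP7, a subunit of RNase P, and ACTB, cytoplasmic actin, were nearest to HSPA1A (0.995 and 0.985). HMGN1, a nucleosome-binding protein, was nearest to HSPD1 (0.997), and PRDX6, another peroxidase, to HSPA8 (0.985). IPO13, a nuclear transport receptor, was nearest to HSF1 (0.997), and PSMC3, an ATPase of the proteasome, to HSPA1B (0.992). For HSP90AB1 it was CTBP2, a transcriptional corepressor (0.987), for DNAJB1 PLD4, a nuclease of lysosomes (0.988), and for HSPE1 FBXO33, an F-box protein (0.986).

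Ratios within a library do not depend on its scaling and set paralogues against each other. The ratio of HSP90AA1 to HSP90AB1 was 0.253, 0.413 and 0.408 with I1 and 0.166, 0.349 and 0.288 in control, so the constitutive gene had the higher FPKM in all libraries. The log2 ratio averaged -1.52 ± 0.402 with I1 and -1.97 ± 0.556 in control (SD, n = 3 each; exact permutation test, 2-sided p = 0.30, where 0.10 is the smallest that 3 against 3 allow). It was higher with I1 in 3 of 3 pairs, with a difference of 0.45.

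The inducible HSP70 genes together had 0.0439, 0.0659 and 0.0579 of the FPKM of HSPA8 with I1 and 0.0552, 0.0634 and 0.0645 in control. The log2 ratio averaged -4.18 ± 0.299 with I1 and -4.04 ± 0.123 in control (exact permutation test, 2-sided p = 0.70). Its difference of -0.14 was 0.02 without I1 replicate 1, the library with the lowest ratio, and 0.11 after the GC correction. The ratio of HSPA1A to HSPA1B, added after the values were seen, was 0.701, 1.37 and 1.05 with I1 and 0.862, 1.09 and 0.995 in control. It was lowest in replicate 1 and highest in replicate 2 of both groups, and the group means of the log2 ratio, 0.01 ± 0.489 with I1 and -0.03 ± 0.169 in control, did not separate (exact permutation test, 2-sided p = 0.90).

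HSPD1 had 131, 82.6 and 72.8 times the FPKM of HSPE1 with I1 and 131, 108 and 102 times in control, although the HSP60 and HSP10 proteins work as one machine. The log2 ratio averaged 6.53 ± 0.444 with I1 and 6.82 ± 0.190 in control (exact permutation test, 2-sided p = 0.30), and the limits on counting HSPE1 given above hold for it too. All members together made up 0.760%, 0.860% and 0.740% of the summed FPKM with I1 and 0.650%, 0.896% and 0.740% in control (exact permutation test, 2-sided p = 0.80). The difference of 0.0248 percentage points was -0.0311 without control replicate 1 and -0.0120 without I1 replicate 2.

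**Figure D4:**
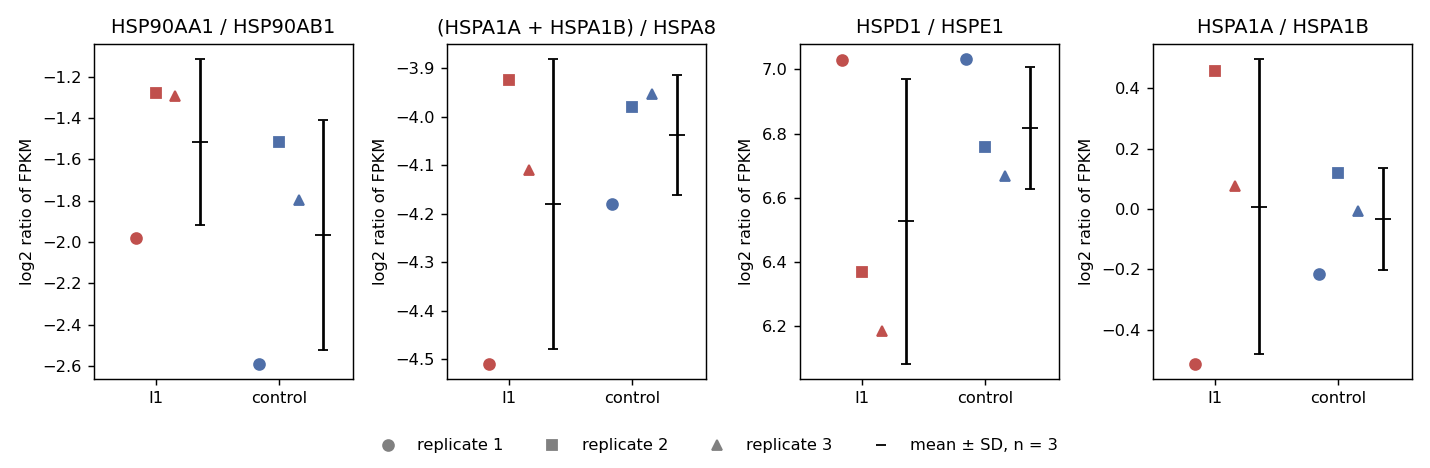
Log2 ratios of FPKM within each library, with 3 I1 libraries (red, left) and 3 control libraries (blue, right), the symbol giving the replicate number and the black bar the mean ± SD. In the HSP90 panel the I1 libraries lie between -1.98 and -1.28 and the control libraries between -2.59 and -1.52, so the groups overlap, as they do in the other 3 panels.

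The wider chaperone network was described by 8 lists with 100 distinct tested genes, of which 0 rose and 0 fell past the threshold by limma. After the GC correction the medians of all 8 lists lay below 0, beside a median of -0.0014 over all tested genes, and some lists share genes. Each corrected median is given beside the uncorrected one. For genes whose groups lay apart, the shares over all tested genes were 12.9% higher with I1, 8.74% lower and 21.6% either way. In the list of HSF relatives and HSF1 regulators, 10 of 12 genes were tested and their median log2 fold change was -0.03, and -0.02 after the GC correction. VCP, an ATPase that extracts ubiquitinated proteins, averaged 84.6 ± 9.71 FPKM with I1 and 99.1 ± 10.8 FPKM in control, and DAXX, a histone chaperone, averaged 20.02 ± 1.91 FPKM with I1 and 22.2 ± 1.86 FPKM in control. SIRT1, a deacetylase that acts on HSF1, had 11.9, 14.0 and 13.6 FPKM with I1 and 7.37, 11.8 and 11.8 FPKM in control, apart but not past the threshold (log2 fold change 0.35, limma adjusted p = 0.467, 0.09 after the GC correction).

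HSP70 relatives and exchange factors had 13 tested genes of 18 and a median of 0.16, which turned to -0.0189 after the GC correction. Of the 13, 3 genes were apart and higher with I1 and 3 apart and lower, beside 12.9% and 8.74% of all tested genes. ST13, which links HSP70 with HSP90, averaged 111 ± 11.2 FPKM with I1 and 106 ± 8.13 FPKM in control, and HSPA4, a relative of HSPH1, averaged 61.3 ± 10.6 FPKM with I1 and 55.5 ± 13.4 FPKM in control. HSPA13, a microsomal HSP70, averaged 13.4 ± 1.39 FPKM with I1 and 9.64 ± 3.20 FPKM in control (log2 fold change 0.48, limma adjusted p = 0.467, 0.06 after the GC correction). STUB1, a ubiquitin ligase that marks clients of HSP70 for breakdown, had 6.43, 7.77 and 7.40 FPKM with I1 and 9.56, 8.92 and 9.13 FPKM in control (log2 fold change -0.32, adjusted p = 0.467, -0.09 after the correction).

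J-domain proteins had 20 tested genes of 22 and a median of 0.08, which turned to -0.0165 after the GC correction. DNAJA1, a partner of HSPA8 that was among the 2 highest, averaged 88.6 ± 20.4 FPKM with I1 and 83.5 ± 26.95 FPKM in control. DNAJA2, a close relative of it, had 90.3, 95.8 and 80.4 FPKM with I1 and 72.9, 92.7 and 80.7 FPKM in control, so both overlapped. DNAJB14, a J-domain protein of the endoplasmic reticulum membrane, had 4.70, 5.54 and 5.47 FPKM with I1 and 1.33, 3.97 and 3.31 FPKM in control. Its log2 fold change of 0.76 ± 0.268 (limma adjusted p = 0.467) was the highest among the companion genes named, and was 0.32 after the GC correction. DNAJC5, a J-domain protein of vesicles, averaged 28.4 ± 1.24 FPKM with I1 and 33.6 ± 2.96 FPKM in control, apart and lower (log2 fold change -0.23, -0.07 after the GC correction).

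HSP90 co-chaperones had 20 tested genes of 21 and a median of 0.04, which turned to -0.0755 after the GC correction. PTGES3, the co-chaperone p23, averaged 132.4 ± 19.7 FPKM with I1 and 106 ± 33.6 FPKM in control, and FKBP4, a co-chaperone of steroid receptors, averaged 89.3 ± 12.4 FPKM with I1 and 100.3 ± 12.98 FPKM in control. TOMM70, which receives HSP90 clients at the mitochondrial surface, had 33.9, 34.2 and 31.9 FPKM with I1 and 22.2, 28.9 and 25.0 FPKM in control (log2 fold change 0.39, limma adjusted p = 0.467, 0.19 after the GC correction).

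Of 10 small heat shock proteins only HSPB1, which binds unfolded proteins without ATP, was tested. It had 118, 132.3 and 108 FPKM with I1 and 169, 137 and 140 FPKM in control, so the groups were apart (log2 fold change -0.31, limma adjusted p = 0.467, -0.09 after the GC correction). The cytosolic chaperonin and prefoldin, which fold actin and tubulin, had 14 tested genes of 15 and a median of -0.07, or -0.14 after the GC correction. None of the 14 was apart between the groups, beside 21.6% of all tested genes. CCT7 averaged 126 ± 12.1 FPKM with I1 and 151 ± 11.4 FPKM in control, and CCT3 averaged 123 ± 13.5 FPKM with I1 and 145 ± 17.98 FPKM in control.

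Mitochondrial chaperones and proteases had 17 tested genes of 18 and a median of -0.05, or -0.06 after the GC correction. HSPA9, the mitochondrial HSP70, averaged 116 ± 10.3 FPKM with I1 and 114 ± 18.7 FPKM in control, and LONP1, a protease of the matrix, averaged 44.5 ± 1.17 FPKM with I1 and 52.9 ± 7.12 FPKM in control. The log2 fold change of LONP1 was -0.24, and -0.03 after the GC correction. GRPEL2, an exchange factor of HSPA9, had 6.45, 4.54 and 5.19 FPKM with I1 and 2.51, 4.27 and 3.38 FPKM in control (log2 fold change 0.55, limma adjusted p = 0.467, 0.24 after the GC correction). HTRA2, a protease of the intermembrane space, averaged 7.55 ± 1.34 FPKM with I1 and 10.1 ± 2.53 FPKM in control (log2 fold change -0.37, -0.18 after the GC correction).

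Genes commonly induced through HSF1, a list that shares members with those above, had 16 tested genes of 18 and a median of -0.12, or -0.10 after the GC correction. Of the 16, 3 genes were apart and lower with I1 and 0 apart and higher, beside 8.74% and 12.9% of all tested genes. Its 2 highest genes by mean FPKM were HSPB1 and PTGES3, whose values are given above. The replicate number took a median of 64.8% of the sum of squares in this list, the highest of the 8 lists.

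**Figure D5:**
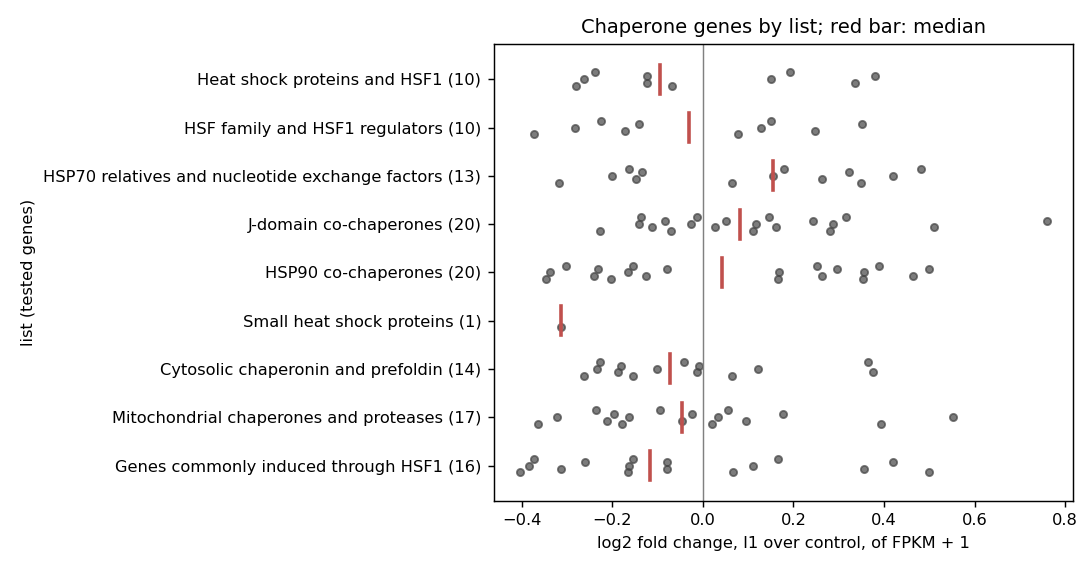
Log2 fold change of I1 over control of FPKM + 1 for each tested gene (grey points), in the set of 10 and in the 8 companion lists, with the median as a red bar. Medians lie between -0.31, for the single tested small heat shock protein, and 0.16, for HSP70 relatives and exchange factors; after the GC correction, not plotted, these were -0.0924 and -0.0189.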

How the data were processed

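RNA of 3 Kasumi-1 samples with I1 and 3 with control went into libraries from a stranded mRNA kit, per the labels' protocols. The submitters' processing notes name Trimmomatic, HISAT2, Cufflinks, HTSeq and hg38; the sources used here give no versions, annotation or strand setting for counting. The authors deposited FPKM values of 29810 genes in 1 table, whose file name refers to a different agent and to lines other than Kasumi-1; its 6 columns carry the names in the sample titles, and these were followed.

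FPKM times GENCODE release 29 exon length was scaled by a library total inferred from the values. This gave whole reads (tolerance 0.05) in all libraries for 95.9% of 29703 genes, members included. The groups were compared by limma 3.58.1 (R 4.3.3; Python 3.11.15) with a trend on log2(FPKM + 1), a scale that understates changes of low genes, 2-sided, for the 11913 genes that reached 1 FPKM in 3 or more libraries, with Benjamini-Hochberg adjustment over all of them. The fit was tested on simulated data. The GC correction subtracted a loess curve (span 0.3) from each library. Other settings were pseudocounts, filters, scalings, array weights, the block, each library left out, protein-coding genes alone and HSPA1A and HSPA1B summed.

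Members and lists were chosen with earlier results of these data known. Companion genes were named by 1 rule per list: the 2 highest in mean FPKM, and the largest rise and fall where groups do not overlap; 2 of these are not reported here. No label says that samples came from separate cultures, so p-values measure only how these samples vary, and that variation may be technical. Over all tested genes the deviations of same-numbered samples correlated at 0.476, 0.457 and 0.412. Same-numbered samples were therefore paired in the counts of pairs and in the replicate block. The main fit and the exact permutation tests did not use this pairing. What the numbers mark is not stated. Replicates differed by more than sampling noise (chi-square over its degrees of freedom, 21.5 to 73.3).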

Additional observations from a re-analysis of the deposited data

How the results depend on the processing

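The count of members past the threshold by limma was 0 under all 18 alternatives. The count over all genes, 4, was 0 with a pseudocount of 0.1 or 0.5, without a filter, with a mean of at least 5 FPKM, with the GC correction and for protein-coding genes alone, 14 with array weights, 1 with the replicate block and the GC correction, and 0 to 2 with a library left out. The replicate block gave 6 and changed the call of no member. The members' median log2 fold change of -0.10 was -0.12 with a mean of at least 5 FPKM, -0.16 with median-of-ratios scaling, 0.0497 with quantile normalization, -0.0381 with array weights, -0.0543 with the GC correction (with and without the replicate block), -0.0681 with HSPA1A and HSPA1B summed, and -0.14 to 0.0183 with a library left out. The GC correction turned 3 list medians from above to below 0, those of HSP70 relatives, J-domain proteins and HSP90 co-chaperones.

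HSP90AB1 turned to 0.115 with quantile normalization and ranged from -0.115 to 0.0160 with a library left out, HSPA1A from -0.50 to 0.0407, and HSPH1 from -0.0730 to 0.334. HSPH1 was -0.13 with the GC correction, with and without the replicate block. HSP90AA1 ranged from 0.03 to 0.69. With a library left out the log2 ratio of the inducible HSP70 genes to HSPA8 differed by -0.271 to 0.0212, and by 0.11 after the GC correction. That of HSP90AA1 to HSP90AB1 differed by 0.14 to 0.68, that of HSPD1 to HSPE1 by -0.54 to -0.12, that of HSPA1A to HSPA1B by -0.18 to 0.30, and the members' share of FPKM by -0.0311 to 0.0918 percentage points. The cause was not tested. Over the alternatives the members' adjusted p by limma was never below 0.142. Depth limits HSPE1 most, with 47 to 108 reads per library.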
